A study of Macaca mulatta with 12 samples.

Results

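The genes described are those of MHC class I and its peptide loading: the class I heavy chain genes MAMU-A, MAMU-B, MAMU-E and MAMU-F, the light chain gene B2M, the peptide loading genes TAP1, TAP2, TAPBP and ERAP1, and the regulator gene NLRC5. All probe sets whose platform annotation gives 1 of these 10 symbols, and no other, were taken. This gave 22 of the 52766 probe sets on the array. A further 7 probe sets name a member beside other symbols, and these were not counted as members.

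Each of 12 rhesus macaque samples went to its own Affymetrix array, with 3 arrays per cell population. ORMES-22 (passages 18, 21 and 19 in replicates A, B and C) is an embryonic stem (ES) cell line made from an embryo fertilised in vitro, and is the biparental control. rPESC-2 (passages 16, 10 and 16) is a heterozygous parthenogenetic ES line and ORMES-9 (passages 13, 14 and 16) a homozygous one, derived from eggs that developed without sperm. The labels conflict on ORMES-9, whose source field names a fertilised embryo while its description and the series design name a parthenote. Skin fibroblasts of a 9-year-old monkey were the somatic control. By the labels the fibroblasts are male and each ES line is female. ES cells of all 3 lines grew on inactivated mouse embryonic fibroblast feeders and undifferentiated colonies were picked, while the fibroblasts grew in serum medium for which the labels name no feeders. Each condition is 1 line, so p-values measure the spread between the arrays that the labels call biological replicates of that line, and the line cannot be told apart from its mode of origin.

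MHC class I molecules carry peptides from inside the cell to its surface, where CD8 T cells and natural killer cells read them. A polymorphic heavy chain pairs with the invariant light chain beta-2-microglobulin in the endoplasmic reticulum. TAP1 and TAP2 together pump peptides into that compartment, ERAP1 trims them, tapasin (TAPBP) holds the empty heavy chain at the pump, and NLRC5 activates transcription of the class I genes. Pluripotent stem cells are known for low class I levels, which interferon gamma can raise. Macaques carry many copies of the MAMU-A and MAMU-B loci, and the number of copies varies between animals.

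Values are log2 RMA levels, so a difference of 1 is 2-fold. Probe sets of a gene are numbered by their mean over the 12 arrays, and set 1 leads the account of the gene. Levels of different probe sets are not comparable, since probes differ in brightness. The endings of Affymetrix names tell how specific the probes were designed to be. Names ending in _at carry no warning, those in _s_at hold probes shared by several transcripts, and those in _x_at hold probes that also match other sequences. Among the members, 15 end in _at, 4 in _s_at and 3 in _x_at, or 18.2% and 13.6% with the warning endings against 6.44% and 1.40% of all probe sets. The warning endings fall on the heavy chain genes alone: both sets of MAMU-A, both of MAMU-B, 2 of MAMU-E and 1 of MAMU-F. Every probe set of the other 6 genes ends in _at.

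Array medians lay between 5.01 and 5.10. The arrays of a group correlated at 0.9928 or more across probe sets, which are not independent, except ORMES-22 replicate A, which reached only 0.9844 and 0.9855 with its own line and 0.9896 with an rPESC-2 array. Printed member differences from ORMES-22 that lost or gained a call, turned or moved by over 1.5 times without this array are given without it too. Bacterial control probe sets had a 90th percentile of 4.26, taken here as the background. Of the member probe sets, 18 were above it on all 12 arrays, 3 on some arrays, and 1 of TAP2 (set 3) on none. Of 5 ES cell genes measured, 3 were called lower in the fibroblasts against every ES line. POU5F1 and SOX2, defining genes of pluripotent cells, read 12.62 to 13.24 and 11.66 to 12.17 in the ES arrays. In the fibroblasts they read 4.68 to 5.26 and 3.52 to 4.09. DPPA4 read 10.50 to 11.21 against 4.28 to 4.50. NANOG was called higher in the fibroblasts (9.50 to 9.55 against 7.71 to 8.79). ZFP42 was not called, at 4.32 to 4.58 in ES arrays, near background, and 4.26 to 4.46 in fibroblasts. Of 8 fibroblast genes measured, 6 were called higher in the fibroblasts against every ES line, such as LUM (11.35 to 11.64 against 3.47 to 4.61). The other two were not called, with DCN lower in the fibroblasts (6.56 to 6.75 against 6.82 to 7.43) and THY1 overlapping (9.27 to 9.52 against 8.997 to 10.33). Of 6 leukocyte genes, the defining gene PTPRC read 3.80 to 4.31 over all 12 arrays, and LCP1 alone was called, lower in fibroblasts (4.34 to 4.42 against 7.22 to 8.82 in ES arrays).

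Differences were tested with limma over all 12 arrays, with Benjamini-Hochberg adjustment over 52766 probe sets. Called probe sets had an adjusted p under 0.05 and differed at least 2-fold. Where a difference is said to pass on adjusted p alone, it was under 2-fold and not called.

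In skin fibroblasts, 8 or 9 of 22 member probe sets rose against each ES line. Called against all 3 lines were 6 of them: MAMU-A set 2, MAMU-E sets 2 and 3, MAMU-F set 1, TAP2 set 1 and set 1 of TAPBP, the tapasin gene. MAMU-B set 1 and TAP1 rose against ORMES-22 and ORMES-9 and were not called against rPESC-2, MAMU-E set 1 rose against rPESC-2 and ORMES-9, and B2M set 2 rose against rPESC-2 alone. Against ORMES-22, 8 of 22 rose and none fell, while 18.8% of all probe sets were called (10.8% higher and 8.04% lower). Against rPESC-2, 8 rose and none fell (19.9% of all called, 10.5% higher and 9.45% lower), and against ORMES-9, 9 rose and none fell (19.9% of all called, 10.5% higher and 9.41% lower). The member median was 0.45, 0.56 and 0.62 above ORMES-22, rPESC-2 and ORMES-9, against −0.13, −0.092 and −0.11 over all probe sets. All 3 fibroblast arrays lay above all 9 ES arrays in 14 member probe sets (18.3% of all probe sets did) and below them in 1 (27.7% of all did). Line by line, 14, 16 and 15 members lay wholly above ORMES-22, rPESC-2 and ORMES-9 and 3, 2 and 2 wholly below, where 63.7%, 61.1% and 64.4% of all probe sets did not overlap in either direction. The 3 comparisons share the fibroblast arrays. In such bulk RNA, fewer cells of a type and less RNA per cell cannot be told apart, and sex, donor, culture and feeders differ between fibroblasts and ES lines together with cell type.

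Among the ES lines, few members were called. MAMU-B set 1 rose in rPESC-2 against ORMES-22 and fell in ORMES-9 against rPESC-2, and MAMU-E set 1 fell in rPESC-2 against ORMES-22. These were 2 of 22 member probe sets for rPESC-2 against ORMES-22 (1.24% of all called, 0.769% higher and 0.474% lower) and 1 of 22 for ORMES-9 against rPESC-2 (1.23% of all called, 0.544% higher and 0.688% lower). None was called for ORMES-9 against ORMES-22 (1.57% of all called, 0.946% higher and 0.629% lower), where 3 passed on adjusted p alone. The member medians were −0.20, 0.087 and −0.099 for rPESC-2 against ORMES-22, ORMES-9 against rPESC-2 and ORMES-9 against ORMES-22, against −0.022, 0.013 and −0.013 over all probe sets.

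**Figure D1:**
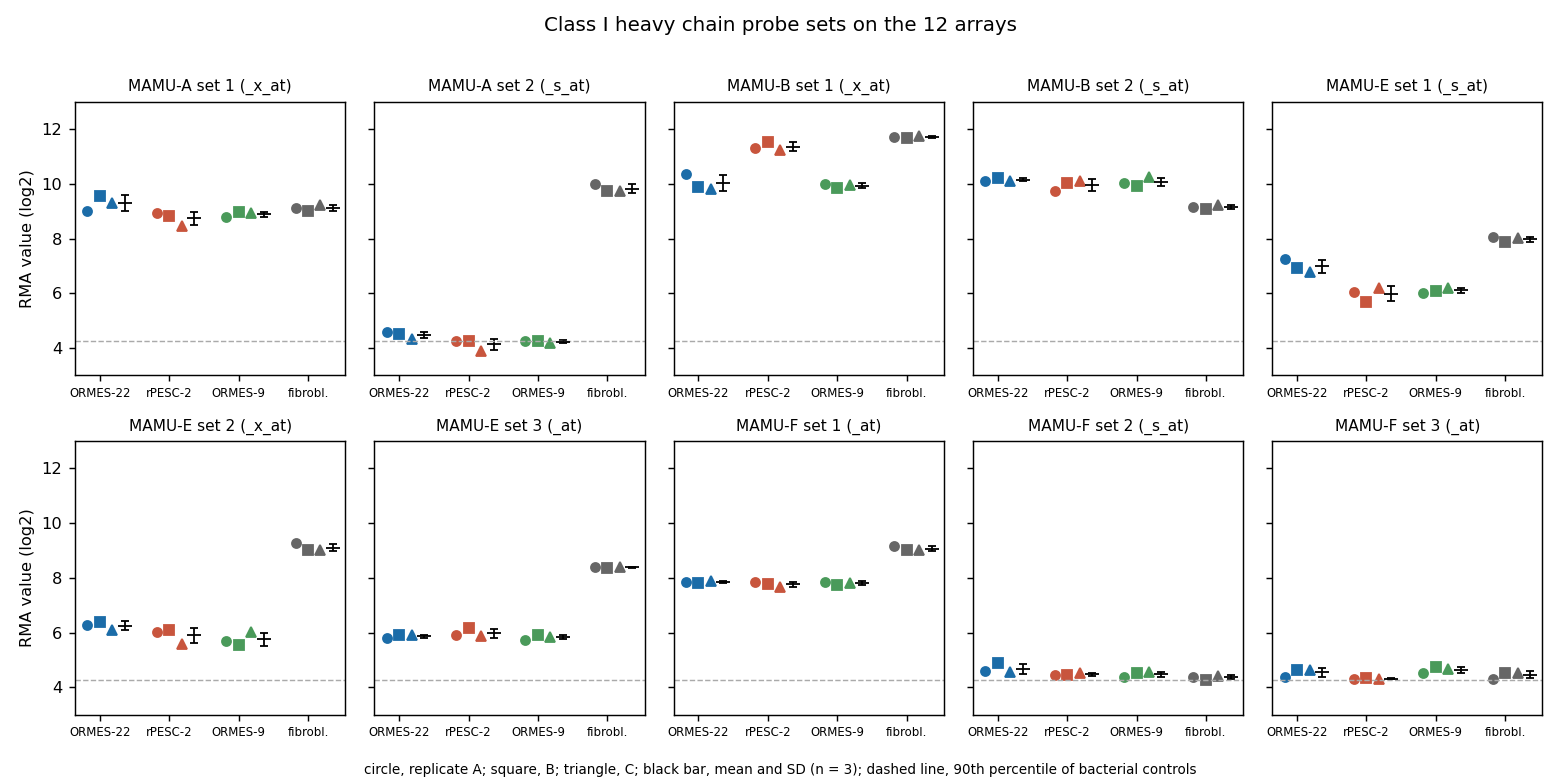
Log2 RMA levels of the 10 heavy chain probe sets on the 12 arrays, by group. Symbols are replicates A, B and C, black bars the mean and SD (n = 3), and the dashed line the background of 4.26. Fibroblasts lie above all ES arrays in 6 of the 10 panels and below them in MAMU-B set 2, and rPESC-2 stands above the other ES lines in MAMU-B set 1.

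MAMU-B encodes a classical class I heavy chain, which presents peptides to CD8 T cells. Its set 1 (_x_at) read 11.30, 11.55 and 11.23 in replicates A, B and C of rPESC-2, 10.36, 9.90 and 9.82 in ORMES-22, 10.00, 9.85 and 9.97 in ORMES-9, and 11.72, 11.69 and 11.74 in fibroblasts. The lowest rPESC-2 array stood above the highest array of either other ES line, and all of them stood just under the fibroblasts. Means were 11.36 ± 0.16 in rPESC-2, 10.03 ± 0.29 in ORMES-22, 9.94 ± 0.08 in ORMES-9 and 11.72 ± 0.02 in fibroblasts (SD, n = 3 each). rPESC-2 was 2.51-fold above ORMES-22 (log2 1.33, SE 0.13, limma adjusted p = 1.28e-04), and the difference was 1.495 without ORMES-22 replicate A. ORMES-9 was 2.67-fold below rPESC-2 (log2 −1.42, SE 0.13, limma adjusted p = 5.4e-05). ORMES-9 and ORMES-22 did not differ beyond their spread (log2 −0.091, 95% interval −0.38 to 0.19, or 0.076 without ORMES-22 replicate A). Fibroblasts were 3.22-fold above ORMES-22 and 3.43-fold above ORMES-9 (limma adjusted p = 3.41e-07 and 1.96e-07), and 0.36 above rPESC-2 on the log2 scale, which passed on adjusted p alone (0.0375).

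The second MAMU-B probe set gave another pattern. Set 2 (_s_at) read 10.12, 10.23 and 10.12 in ORMES-22, 9.73, 10.05 and 10.11 in rPESC-2, 10.04, 9.93 and 10.25 in ORMES-9, and 9.15, 9.09 and 9.25 in fibroblasts. ORMES-9 overlapped both other ES lines here, while every rPESC-2 array lay just under every ORMES-22 array. That difference was −0.19 (95% interval −0.44 to 0.05, limma adjusted p = 0.342). Fibroblasts were the lowest group. Fibroblasts differed from ORMES-22 by −0.996 (limma adjusted p = 8.85e-06), which missed 2-fold in all 12 arrays and met it without ORMES-22 replicate A or C (−1.01 each) or fibroblast replicate C (−1.04). Against rPESC-2 and ORMES-9 the differences were −0.80 and −0.91 (adjusted p = 5.51e-05 and 1.79e-05), again under 2-fold. A direction for MAMU-B as a gene therefore rests on which probe set is read.

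MAMU-A encodes the other classical heavy chain, and its probe sets disagreed most of all. Set 2 (_s_at) read 10.01, 9.73 and 9.73 in fibroblasts, 4.57, 4.50 and 4.34 in ORMES-22, 4.25, 4.27 and 3.91 in rPESC-2, and 4.27, 4.27 and 4.18 in ORMES-9. ES levels lay near the background, above it on 3 ORMES-22 arrays, 1 rPESC-2 array and 2 ORMES-9 arrays and below it on the others. Fibroblast levels were far above it. The rise was 40.9-fold, 51.4-fold and 48.0-fold against ORMES-22, rPESC-2 and ORMES-9 (log2 5.35, 5.68 and 5.59, SE 0.11 each, limma adjusted p = 2.42e-12, 1.4e-12 and 1.63e-12). With the ES values near background, these folds depend on the background of the arrays. Set 1 (_x_at) read 9.13, 8.99 and 9.21 in fibroblasts, 9.01, 9.57 and 9.30 in ORMES-22, 8.93, 8.83 and 8.46 in rPESC-2, and 8.79, 8.97 and 8.92 in ORMES-9. Here fibroblasts overlapped ORMES-22, with a difference of −0.18 (95% interval −0.51 to 0.14), which became −0.33 with ORMES-22 replicate A left out (adjusted p = 0.065). Among the ES lines set 1 differed by −0.56 in rPESC-2 against ORMES-22 (limma adjusted p = 0.0542), and by −0.70 without ORMES-22 replicate A (adjusted p = 0.00552, under 2-fold).

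MAMU-E encodes a nonclassical heavy chain that presents leader peptides of other class I molecules to receptors of natural killer cells. Set 1 (_s_at) read 7.26, 6.93 and 6.78 in ORMES-22, 6.06, 5.69 and 6.21 in rPESC-2, 6.01, 6.10 and 6.21 in ORMES-9, and 8.04, 7.88 and 8.01 in fibroblasts. Every ORMES-22 array stood above every array of both parthenogenetic lines and below the fibroblasts. rPESC-2 was 2.01-fold below ORMES-22 (log2 −1.005, SE 0.14, limma adjusted p = 0.0018), but only −0.87 without ORMES-22 replicate A and −0.86 without rPESC-2 replicate B, both under 2-fold. ORMES-9 differed from ORMES-22 by −0.88 (limma adjusted p = 0.00268, under 2-fold) and from rPESC-2 by 0.12 (95% interval −0.19 to 0.43). The other MAMU-E sets differed less between rPESC-2 and ORMES-22, by −0.35 and 0.11 (adjusted p = 0.226 and 0.482).

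Fibroblasts exceeded ES cells in all 3 MAMU-E probe sets. Set 2 (_x_at) read 9.27, 9.03 and 9.03 in fibroblasts, 6.27, 6.41 and 6.10 in ORMES-22, 6.03, 6.10 and 5.60 in rPESC-2, and 5.70, 5.54 and 6.02 in ORMES-9. Set 3 (_at) read 8.38, 8.35 and 8.41 in fibroblasts and 5.75 to 6.16 over the 9 ES arrays. Every ES array lay well under the fibroblasts in both. The rise was 7.23-fold to 10.2-fold in set 2 and 5.29-fold to 5.85-fold in set 3 over the 3 ES lines (limma adjusted p at most 1.22e-08). Set 1 rose 3.98-fold against rPESC-2 and 3.66-fold against ORMES-9, while against ORMES-22 it differed by 0.99 (adjusted p = 8.76e-05), called only without ORMES-22 replicate A (1.12) or fibroblast replicate B (1.04).

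MAMU-F encodes a further nonclassical heavy chain. Set 1 (_at) read 9.17, 9.01 and 9.02 in fibroblasts, 7.86, 7.83 and 7.89 in ORMES-22, 7.86, 7.77 and 7.66 in rPESC-2, and 7.86, 7.74 and 7.82 in ORMES-9. The 9 ES arrays lay between 7.66 and 7.89, with no order among the lines beyond their spread. Fibroblasts were 2.31-fold, 2.47-fold and 2.39-fold above ORMES-22, rPESC-2 and ORMES-9 (log2 1.21, 1.31 and 1.26, SE 0.08 each, limma adjusted p = 5.48e-08, 2.55e-08 and 3.58e-08). Sets 2 and 3 read 4.29 to 4.88 and 4.30 to 4.73 over the 12 arrays, just above background, and were called in no comparison.

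Cross-hybridisation bears on all heavy chain values. The likeness of probe sets was measured as the root mean square (RMS) difference of their values over the 12 arrays, each centred on its own mean. The 2 MAMU-A sets lay 2.35 apart and the 2 MAMU-B sets 1.14 apart, further than MAMU-E sets 2 and 3 (0.38). The names of these MAMU-E sets differ only in the ending. MAMU-E set 1 lay 0.74 from set 2 and 0.6 from set 3, and nearer to MAMU-F set 1 (0.43). MAMU-A set 2 was nearer to MAMU-E set 2 (1.055) than to MAMU-A set 1. MAMU-B set 1 was nearer to MAMU-F set 1 (0.61) than to the other MAMU-B set, and MAMU-A set 1 lay 0.24 from a dim MAMU-F set, where both vary little. Since class I genes are polymorphic and duplicated and the groups come from different animals, a difference of alleles or gene copies under the probes and a difference of transcript level cannot be told apart in these probe sets. B2M, TAP1, TAP2, TAPBP, ERAP1 and NLRC5 are single genes whose probe sets carry no such warning.

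The 7 probe sets that name a member among several symbols were looked at after the members' values were seen. In 4 of them every rPESC-2 array stood above every ORMES-22 and every ORMES-9 array, as in MAMU-B set 1. Of all probe sets, 20.3% did not overlap in either direction between rPESC-2 and ORMES-22, and 22.5% between ORMES-9 and rPESC-2. The share with rPESC-2 above both other lines was not counted. An _x_at probe set that names MAMU-I, MAMU-A and MAMU-B beside provisional genes read 10.59, 10.70 and 10.83 in rPESC-2, 9.91, 10.07 and 10.01 in ORMES-22, 9.70, 9.76 and 10.08 in ORMES-9, and 10.16, 10.32 and 10.19 in fibroblasts. rPESC-2 exceeded ORMES-22 by 0.71 (SE 0.11, limma adjusted p = 0.0024), under 2-fold, and fibroblasts were below rPESC-2 by a difference of −0.48 (adjusted p = 0.00207), where MAMU-B set 1 had them 0.36 above. The other 3 all name MAMU-AG and MAMU-A, and not MAMU-B. Their names carry the same cluster number, so the 4 probe sets cannot be taken as independent. These 3 exceeded ORMES-22 by 0.37 to 0.59 in rPESC-2 and were not called, the smallest at limma adjusted p = 0.0857. One of these, also an _x_at set, was called lower in ORMES-9 than in rPESC-2 (log2 −1.12, adjusted p = 2.03e-05) and in fibroblasts than in rPESC-2 (−1.47, adjusted p = 4.38e-08). The remaining 3 differed between rPESC-2 and ORMES-22 by −0.085 to 0.029.

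**Figure D2:**
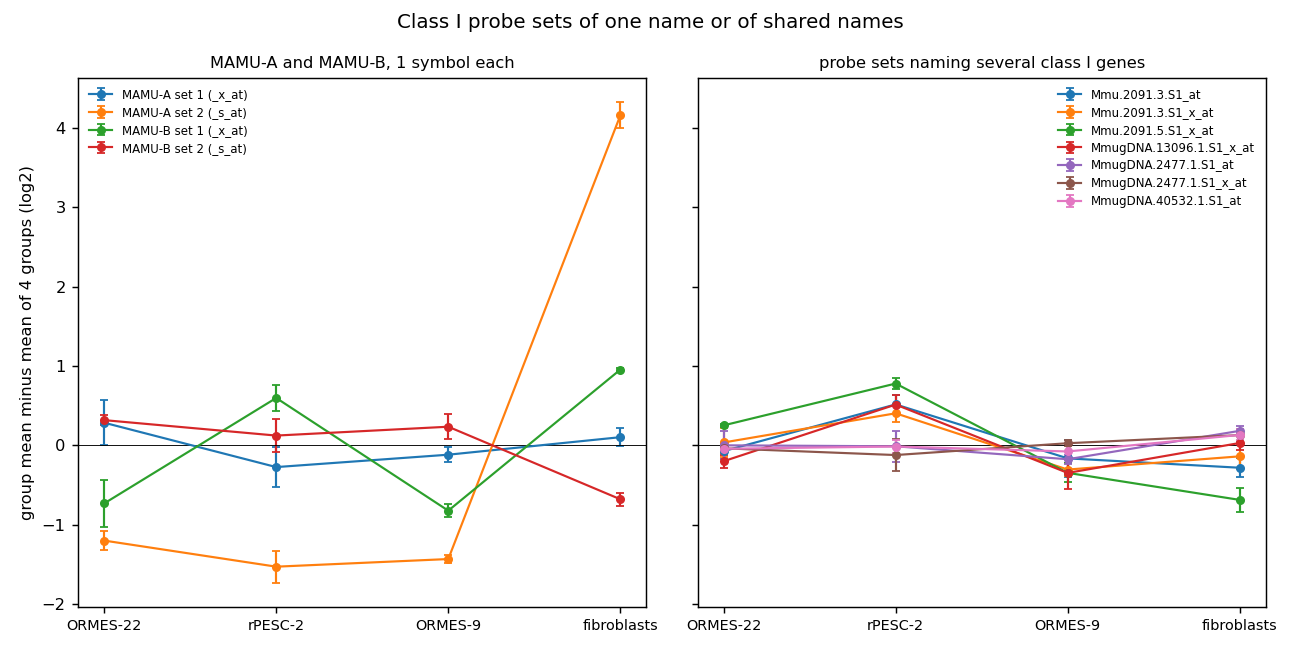
Group means of log2 levels, each minus the mean of the 4 groups, for the 4 MAMU-A and MAMU-B probe sets (left) and the 7 probe sets that name several class I genes (right); bars are the SD of 3 arrays. MAMU-A set 2 is high in fibroblasts alone, MAMU-B set 1 is high in rPESC-2 and fibroblasts, and 4 shared probe sets are highest in rPESC-2.

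B2M encodes beta-2-microglobulin, the light chain that every class I molecule needs to reach the surface. Set 1 read 13.22, 13.13 and 13.18 in fibroblasts, 12.71, 12.92 and 12.83 in ORMES-22, 12.60, 12.57 and 12.40 in ORMES-9, and 12.28, 12.23 and 12.23 in rPESC-2. Set 2 kept the order of the groups, at 13.08, 13.15 and 13.05, then 12.56, 12.68 and 12.60, then 12.34, 12.34 and 12.09, then 11.94, 12.10 and 12.08. In set 1 no groups overlapped, and in set 2 only ORMES-9 and rPESC-2 did. rPESC-2 differed from ORMES-22 by −0.57 in both sets (SE 0.08 and 0.09, limma adjusted p = 0.00138 and 0.00261), which passed on adjusted p alone. The same held for ORMES-9 against ORMES-22, at −0.30 and −0.36 (adjusted p = 0.0456 and 0.0302). ORMES-9 exceeded rPESC-2 by 0.28 in set 1 (95% interval 0.11 to 0.45) and 0.21 in set 2 (0.027 to 0.40), and neither passed the test after adjustment (adjusted p = 0.0705 and 0.226).

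Fibroblast B2M was 1.28-fold and 1.40-fold above ORMES-22 in sets 1 and 2, which passed on adjusted p alone (0.0023 and 4.65e-04). Only set 2 against rPESC-2 was called, at 2.07-fold (log2 1.05, SE 0.09, limma adjusted p = 5.03e-07), with set 1 at 1.90-fold. Against ORMES-9 the differences were 0.65 and 0.84 (adjusted p = 1.73e-05 and 3.99e-06), under 2-fold.

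Levels of fibroblast markers also differed among the ES lines. The mean log2 level of 8 measured fibroblast genes was 7.91 to 8.12 in the ORMES-22 arrays, 7.33 to 7.57 in ORMES-9, 6.97 to 7.55 in rPESC-2 and 10.58 to 10.64 in fibroblasts. The ORMES-22 arrays were the highest of the ES arrays in this mean, as in B2M and MAMU-E set 1, while ORMES-9 and rPESC-2 overlapped. COL6A3 and TWIST1 of this list were called lower in rPESC-2 than in ORMES-22, and TWIST1 also in ORMES-9. The other 6 were not called between ES lines, and DCN had its lowest ES mean in ORMES-22 (7.02, against 7.05 in rPESC-2 and 7.27 in ORMES-9). The defining gene LUM was below the background on 8 of the 9 ES arrays. The part of these markers in the B2M and MAMU-E values was not tested. Of 5 genes of class II presenting cells measured, none was called in any of the 6 comparisons.

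**Figure D3:**
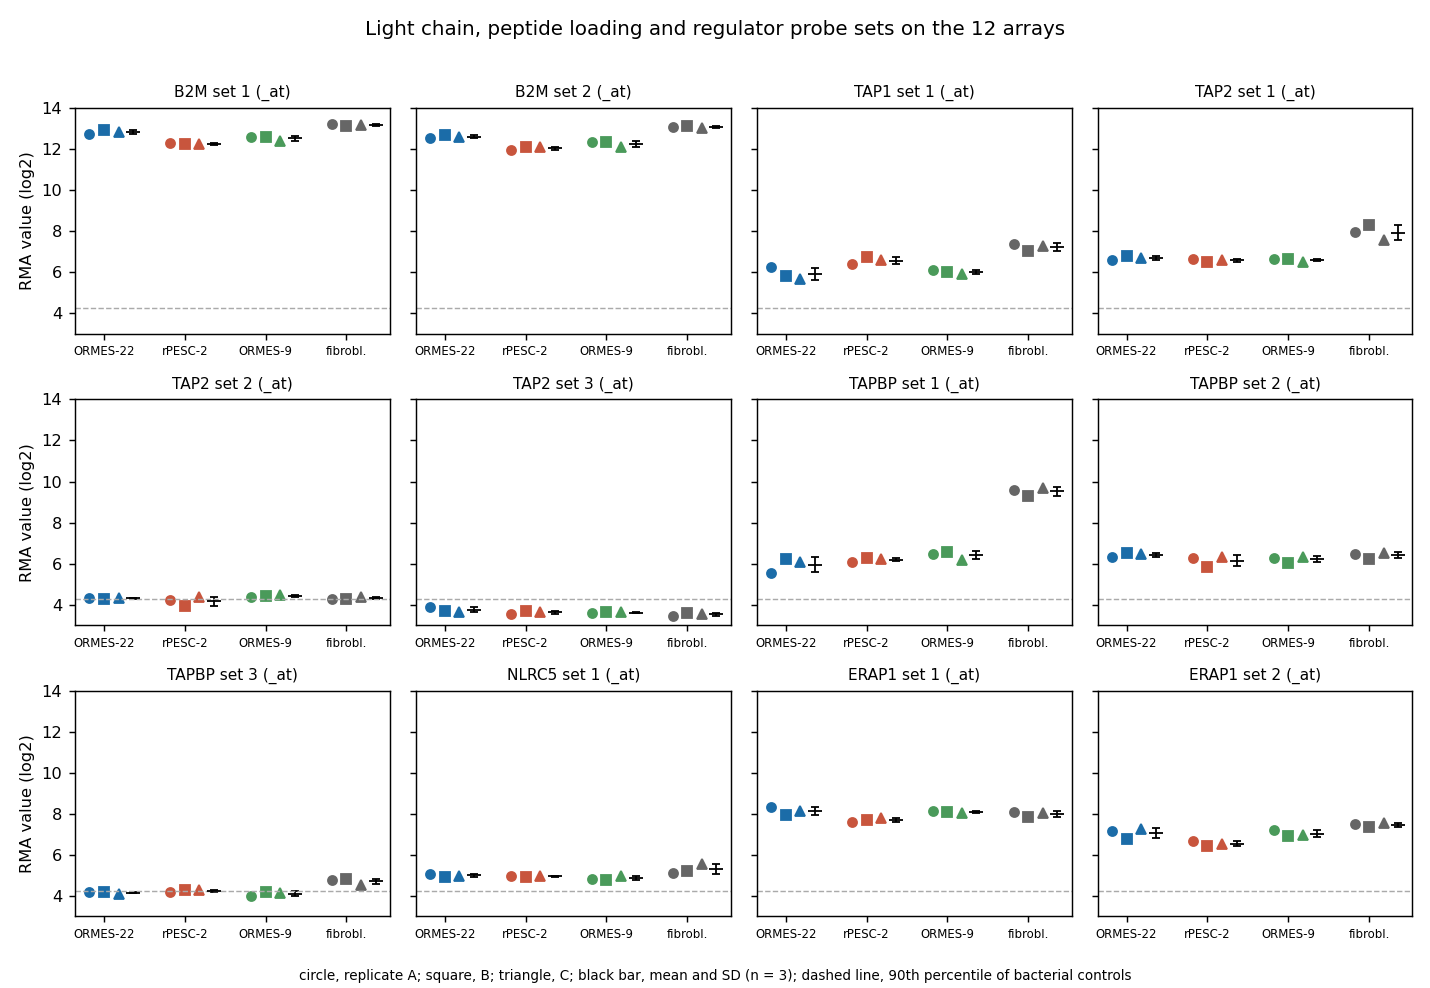
Log2 RMA levels of the 12 probe sets of B2M, TAP1, TAP2, TAPBP, NLRC5 and ERAP1 on the 12 arrays, by group. Symbols are replicates, black bars the mean and SD (n = 3), and the dashed line the background of 4.26; TAPBP set 1 has the widest gap between fibroblasts and ES arrays, and TAP2 set 3 lies under the line on every array.

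TAP1 and TAP2 form the peptide pump. TAP1, with 1 probe set, read 7.37, 7.01 and 7.27 in fibroblasts, 6.41, 6.72 and 6.58 in rPESC-2, 6.11, 6.03 and 5.93 in ORMES-9, and 6.24, 5.82 and 5.66 in ORMES-22. rPESC-2 stood above both other ES lines on every array, as it did in MAMU-B set 1. It exceeded ORMES-22 by 0.66 (SE 0.15, limma adjusted p = 0.0235), under 2-fold, and by 0.83 without ORMES-22 replicate A (adjusted p = 9.9e-04). ORMES-9 differed from rPESC-2 by −0.55 (adjusted p = 0.0526) and from ORMES-22 by 0.12 (95% interval −0.20 to 0.43), or 0.28 without ORMES-22 replicate A. Fibroblast TAP1 was 2.48-fold above ORMES-22 and 2.29-fold above ORMES-9 (limma adjusted p = 8.92e-06 and 1.88e-05), and 1.57-fold above rPESC-2, under 2-fold (adjusted p = 0.00244).

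TAP2 set 1 read 7.94, 8.28 and 7.57 in fibroblasts, 6.60, 6.81 and 6.69 in ORMES-22, 6.62, 6.51 and 6.59 in rPESC-2, and 6.63, 6.64 and 6.51 in ORMES-9. The ES lines overlapped, and rPESC-2 differed from ORMES-22 by −0.13 (95% interval −0.43 to 0.18). Fibroblasts were 2.34-fold, 2.55-fold and 2.52-fold above ORMES-22, rPESC-2 and ORMES-9 (limma adjusted p = 1.22e-05, 4.74e-06 and 5.35e-06). TAP2 sets 2 and 3 read 3.92 to 4.45 and 3.43 to 3.88 over the 12 arrays, above the background of 4.26 on 10 arrays and on none, and were called in no comparison.

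TAPBP encodes tapasin, the bridge between the pump and the empty heavy chain. Set 1 read 9.61, 9.28 and 9.70 in fibroblasts, 5.54, 6.24 and 6.07 in ORMES-22, 6.10, 6.27 and 6.21 in rPESC-2, and 6.48, 6.56 and 6.19 in ORMES-9. All fibroblast arrays lay far above the ES arrays. The rise was 11.9-fold, 10.1-fold and 8.68-fold against ORMES-22, rPESC-2 and ORMES-9 (log2 3.58, 3.34 and 3.12, SE 0.17 each, limma adjusted p = 3.87e-09, 7.05e-09 and 1.28e-08). The other TAPBP sets were not called. Set 2 read 6.24, 6.47 and 6.49 in the fibroblast arrays from lowest to highest and 5.83 to 6.49 in ES arrays. Set 3 read 4.77, 4.81 and 4.55 in fibroblasts and 3.99 to 4.28 in ES arrays, near background, and its differences of 0.56, 0.47 and 0.60 passed on adjusted p alone (1.61e-04, 5.85e-04 and 8.45e-05). The ES lines overlapped in set 1, where ORMES-9 exceeded ORMES-22 by 0.46 (adjusted p = 0.162), and by 0.26 with ORMES-22 replicate A left out (adjusted p = 0.303).

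ERAP1 trims peptides to the length that class I molecules bind. Set 1 read 8.10, 7.85 and 8.05 in fibroblasts, 8.32, 7.94 and 8.16 in ORMES-22, 8.15, 8.11 and 8.03 in ORMES-9, and 7.63, 7.70 and 7.79 in rPESC-2. Set 2 read 7.51, 7.37 and 7.54, then 7.15, 6.80 and 7.24, then 7.22, 6.91 and 6.99, then 6.69, 6.44 and 6.52 in the same order of groups. rPESC-2 was the lowest group in both sets and overlapped no other. It differed from ORMES-22 by −0.43 and −0.52 (limma adjusted p = 0.0337 and 0.0361), and ORMES-9 exceeded it by 0.39 and 0.50 (adjusted p = 0.0493 and 0.0399), all under 2-fold. ORMES-9 and ORMES-22 differed by −0.043 and −0.021 (95% intervals −0.27 to 0.18 and −0.29 to 0.25), and by 0.046 and 0.023 without ORMES-22 replicate A. Fibroblasts were not called against any ES line in ERAP1, the largest difference being 0.93 in set 2 against rPESC-2 (adjusted p = 4.44e-05).

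NLRC5 encodes the class I transactivator. Its single probe set read 5.12, 5.24 and 5.57 in fibroblasts, 5.09, 4.94 and 4.98 in ORMES-22, 4.98, 4.90 and 4.97 in rPESC-2, and 4.85, 4.79 and 4.98 in ORMES-9. Fibroblasts lay above all ES arrays by a narrow margin. The differences of 0.30, 0.36 and 0.44 passed on adjusted p alone (0.0309, 0.0149 and 0.00462), and the ES levels lay not far above the background of 4.26. The ES lines did not differ beyond their spread, with rPESC-2 at −0.054 against ORMES-22 (95% interval −0.29 to 0.18), or −0.0095 without ORMES-22 replicate A.

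**Figure D4:**
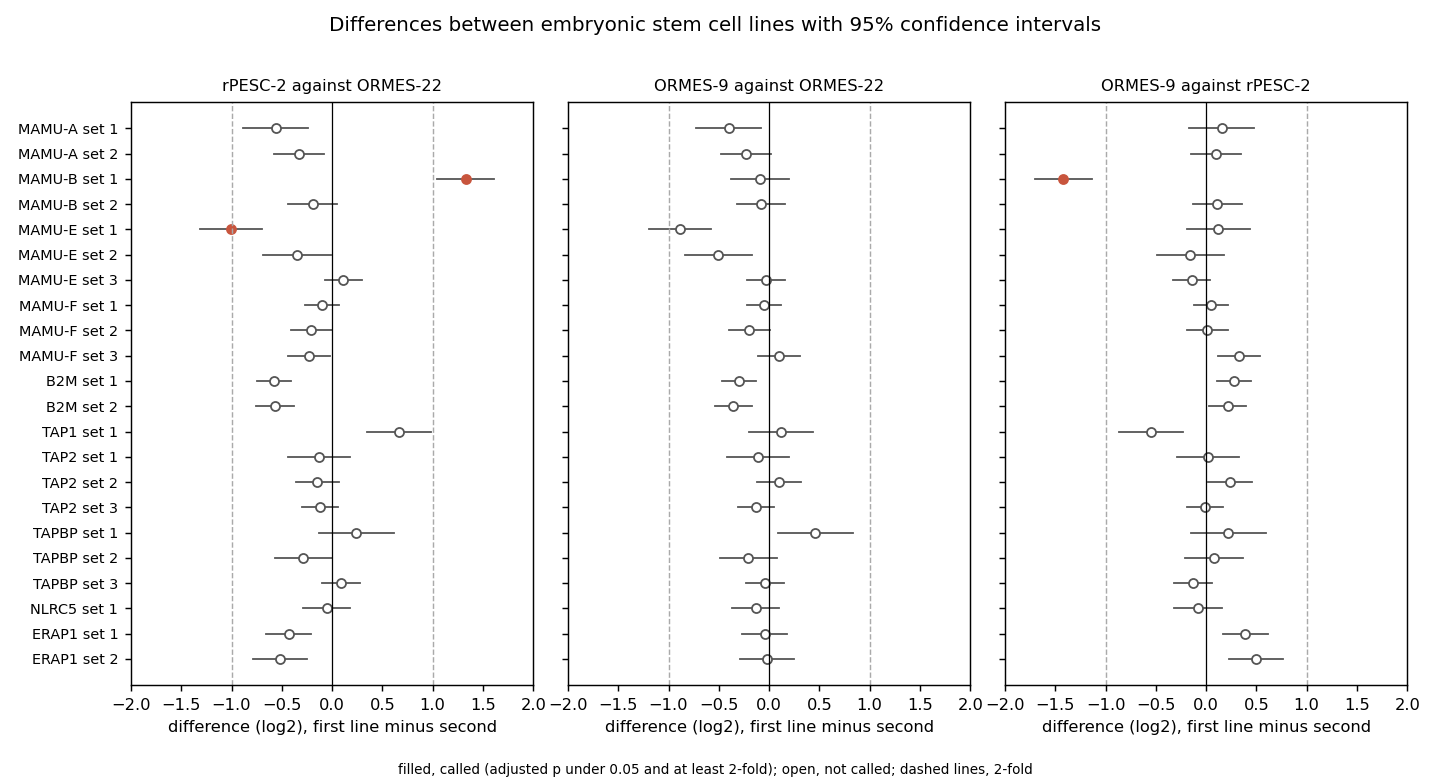
Differences in log2 level between the ES lines for the 22 member probe sets, with 95% confidence intervals from limma that are not adjusted for the number of probe sets. Filled points were called, and dashed lines mark 2-fold; MAMU-B set 1 lies past 2-fold on both panels that hold rPESC-2, and MAMU-E set 1 lies at 2-fold on the first panel.

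Read across members, the rPESC-2 mean lay below the ORMES-22 mean in 17 of 22 probe sets and above it in 5, where it lay below in 55.5% of all probe sets. MAMU-B set 1 and TAP1 were higher on every rPESC-2 array, and 10 member probe sets were lower on every one, among them both sets of B2M and of ERAP1 and MAMU-E set 1. Values of the groups did not overlap in 20.3% of all probe sets in this comparison. For ORMES-9 against ORMES-22, 1 member probe set lay wholly above and 8 wholly below (20.3% of all did not overlap), and for ORMES-9 against rPESC-2, 4 above and 2 below (22.5% of all). Comparisons that hold the same line share its arrays.

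The genes whose profile over the 12 arrays lay nearest to B2M set 1, of 11453 genes compared by RMS, were TMEM92 (0.10), RSU1, VPS26B, CRIP2 and ZMAT5 (0.12 each), where the median gene lay at 0.50. Nearest to MAMU-B set 1 were MAN2A2 (0.24), CBLB (0.27), IGFBP2 (0.28), CEMIP2 (0.31) and TMEM106B (0.32), with a median of 0.91. CBLB, a ubiquitin ligase, had group means of 8.28 in rPESC-2, 8.30 in fibroblasts, 6.77 in ORMES-22 and 7.13 in ORMES-9. The members themselves were left out of the genes compared.

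The rest of the pathway was followed in 6 further lists, with 1 probe set per gene, the one with the highest mean. Among all 14132 named genes taken in this way, 26.5%, 28% and 28.1% were called in fibroblasts against ORMES-22, rPESC-2 and ORMES-9, and 1.69%, 2.29% and 1.63% in rPESC-2 against ORMES-22, ORMES-9 against ORMES-22 and ORMES-9 against rPESC-2. Of 36 genes measured in these lists, 3 calls were made among ES lines, for 2 genes.

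Of 6 other class I and class I-like genes measured, MAMU-AG was called lower in ORMES-9. MAMU-AG is a nonclassical macaque gene known from the placenta. Its probe set (_x_at) read 7.71, 7.61 and 7.42 in ORMES-9 and 9.79, 10.04 and 10.23 in ORMES-22. It read 9.99, 10.15 and 9.72 in rPESC-2, and 10.37, 10.50 and 10.50 in fibroblasts. ORMES-9 stood well under all other arrays, 5.42-fold below ORMES-22 (log2 −2.44, SE 0.13, limma adjusted p = 5.82e-07) and 5.17-fold below rPESC-2 (adjusted p = 7.42e-07). In the other MAMU-AG probe set ORMES-9 differed from ORMES-22 by −0.67, under 2-fold (limma adjusted p = 0.0166), and from rPESC-2 by a called −1.67. Fibroblasts were lower than ORMES-22 in that set (−1.47). As for the heavy chain members, a difference of alleles or gene copies and one of transcript level cannot be told apart here. MICB encodes a stress-induced ligand of a natural killer cell receptor. Its probe set (_s_at) read 5.28 to 5.56 in fibroblasts and 8.71 to 9.73 in ES arrays. This was a fall of 13.5-fold against ORMES-22 (limma adjusted p = 2.19e-08), though the other MICB probe set differed by −0.32. MAMU-I (_x_at) rose 2.51-fold in fibroblasts against ORMES-9, while another of its probe sets fell by 1.80 on the log2 scale.

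Of 4 folding and loading helpers measured, 2, 3 and 3 rose in fibroblasts against ORMES-22, rPESC-2 and ORMES-9 and none fell. PDIA3, the disulfide isomerase of the loading complex, read 12.44, 12.53 and 12.54 in fibroblasts and 10.51 to 11.06 in ES arrays, 2.96-fold to 3.51-fold higher. The chaperone CANX rose 2.53-fold against ORMES-22, and 2.09-fold against rPESC-2, a call lost without rPESC-2 replicate B (0.998 on the log2 scale). TAPBPL, a tapasin relative, rose 2.06-fold and 2.02-fold against rPESC-2 and ORMES-9, calls lost without fibroblast replicate A or C. Of 3 immunoproteasome genes measured, PSMB8 rose in all 3 comparisons, at 7.77, 7.40 and 7.68 in fibroblasts against 4.31 to 4.85 in ES arrays (9.27-fold against ORMES-22, adjusted p = 2.47e-11).

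Of 10 regulators of class I transcription, 3 rose and 2 fell in fibroblasts against ORMES-22, 3 and 2 against rPESC-2, and 3 and 1 against ORMES-9. The NF-kappa-B subunit gene NFKB1 read 9.88 to 10.08 in fibroblasts and 4.39 to 5.39 in ES arrays, and of its other probe sets 1 rose by 3.13 against ORMES-22 and 1 differed by −0.067. The interferon regulatory factors IRF1 and IRF2 read 6.91 to 7.25 and 6.44 to 6.65 in fibroblasts against 5.40 to 5.71 and 3.90 to 4.38 in ES arrays. Among ES arrays, IRF2 was above the background on 1 ORMES-22 array alone. NFYB, a promoter-binding factor, fell by 1.002 against ORMES-22, a call lost without ORMES-22 replicate A or C (−0.93 and −0.89) or fibroblast replicate A or B (−0.999 and −0.98). RFXANK fell by 1.13, or by 0.95 and under 2-fold without ORMES-22 replicate A. None of the 10 was called between ES lines.

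Interferon genes moved in both directions. Of 5 interferon signalling genes, the kinase gene JAK2 rose in fibroblasts against all 3 lines (3.00-fold against ORMES-22), and it fell in rPESC-2 against ORMES-22, at 8.46, 8.38 and 8.45 against 9.36, 9.53 and 9.52 (log2 −1.04, SE 0.08, limma adjusted p = 1.91e-05). Its other probe sets differed by 0.080 and 0.028 there. Of 8 interferon-induced genes, IFIT3 and GBP1 rose in fibroblasts and MX1 and GBP2 fell against all 3 ES lines. GBP1 was above the background on the fibroblast arrays alone. ISG15 fell against rPESC-2 and ORMES-9. Against ORMES-22, the other GBP2 probe sets differed by 0.11 and 0.235 and the other IFIT3 sets by 0.48 and 0.93, none called. Further GBP1 sets rose by 2.27, 2.61 and 3.04 there, while others differed by −0.15 and −0.29 and were not called. MX1 read 5.14 to 5.68 in fibroblasts and 7.65 to 8.85 in ES arrays, while IFIT3 read 8.01 to 8.10 against 4.54 to 5.54. None of the 8 was called between ES lines.

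**Figure D5:**
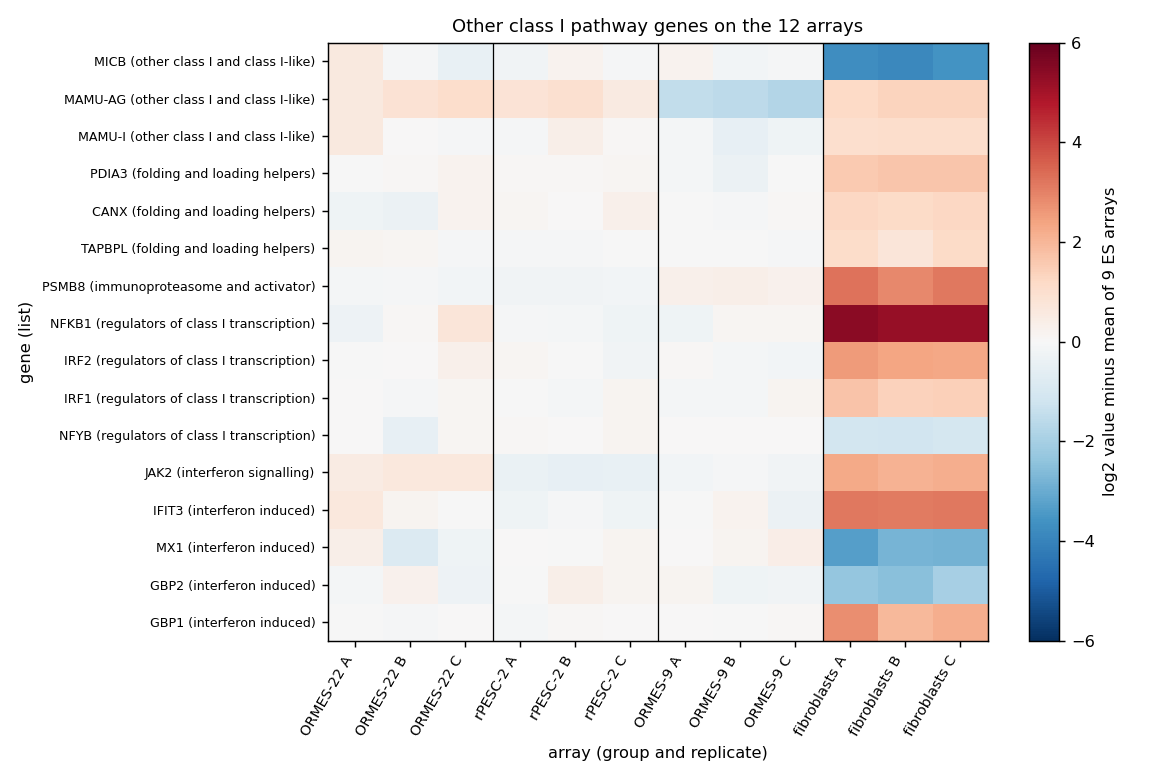
Log2 levels of 16 named pathway genes, which are no members, on the 12 arrays, each minus the mean of the 9 ES arrays, on a colour scale from blue (lower) to red (higher). Fibroblast columns hold the strongest colours, with NFKB1 highest and MICB lowest, and the MAMU-AG row is blue on the ORMES-9 arrays.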

How the data were processed

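RNA from 12 samples was measured on 12 arrays. The deposited values, log2 levels per probe set, came from RMA run by the authors, as the submitters' processing notes state; its version, the probe set definition and genome build are not given in the sources used here. RMA makes the distributions of arrays alike, which would reduce any difference common to most genes. The log2 scale was read from the values. Of 52865 features, 99 controls were left out.

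Symbols came from the platform annotation: 24956 probe sets had 1 symbol, 361 several and 27449 none. Of the 10 member symbols, 9 were in a reference gene table of another assembly, so no coordinates are printed. No sequences were used here.

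Groups were fitted together in limma 3.58.1 (R 4.3.3; lmFit, eBayes; 8 residual and 3.69 prior degrees of freedom), with two-sided p-values adjusted over all probe sets for 6 comparisons, and no covariate. The method was tested on simulated data. The number of arrays limits precision. All member probe sets are reported. Of each pathway list up to 4 called genes with the largest differences are named, and RFXANK and ISG15 beside these. Replicate letters were not used to pair samples, and 6 of 18 same-letter pairs correlated above 0.1 in their deviations from group means. Such deviations cancel out within a group, so this count cannot decide whether the letters pair. Members and lists were chosen with earlier results of these data known. Alternatives were other fits, scalings, thresholds, probe set choices and each array left out.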

Additional observations from a re-analysis of the deposited data

How the results depend on the processing

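For rPESC-2 against ORMES-22, the 2 member probe sets called became 1 when only these groups were fitted, when array medians were subtracted and with array weights, 7 with no minimum fold and 0 at 3-fold, and 1 to 2 with an array left out. For ORMES-9 against ORMES-22, 0 became 3 with no minimum fold, and stayed 0 with each array left out. For ORMES-9 against rPESC-2, 1 became 3 with no minimum fold and 0 at 3-fold, and was 1 with each array left out. For fibroblasts against ORMES-22, 8 became 17 with no minimum fold and 5 at 3-fold (8 to 10 with an array left out), against rPESC-2 16 and 5 (8 each), and against ORMES-9, 9 became 15 (9 each). The fit with a replicate block gave 2, 0, 1, 8, 8 and 9 in this order, and changed no count. Array letters carry no stated pairing, and an array shared most with its own letter in 14 of 36 checks, each among the 3 arrays of another group.

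The direction of single genes turned 13 times, in differences that were not called. For ORMES-9 against ORMES-22, MAMU-B turned from −0.091 to 0.076 and ERAP1 from −0.043 to 0.046 without ORMES-22 replicate A, and TAP1 from 0.12 to −0.0086 without ORMES-22 replicate C. For ORMES-9 against rPESC-2, MAMU-E turned from 0.12 to −0.028 without rPESC-2 replicate B and to −0.0595 with the mean of its probe sets above background, MAMU-F from 0.050 to −0.0033 without rPESC-2 replicate C, and TAP2 from 0.019 to −0.012, −7e-04 and −0.0026 without rPESC-2 replicate B and ORMES-9 replicates A and B. Over all arrays left out in turn, these differences ran from −0.20 to 0.076 in MAMU-B, −0.0086 to 0.28 in TAP1, −0.14 to 0.046 in ERAP1, −0.028 to 0.23 in MAMU-E, −0.0033 to 0.097 in MAMU-F and −0.012 to 0.060 in TAP2. With the mean of a gene's probe sets, fibroblasts against ORMES-22 turned from −0.18 to 2.59 in MAMU-A and from −0.14 to 0.14 in ERAP1, MAMU-B against rPESC-2 from 0.36 to −0.22, and ERAP1 against ORMES-9 from −0.095 to 0.17; this mean mixes probe sets that disagree. Of the other differences, 894 kept direction and side of the threshold, 16 lost and 7 gained a call. MAMU-B in rPESC-2 against ORMES-22 was called in 15 of 16 alternatives and ran from 0.57 to 1.495. In ORMES-9 against rPESC-2 it was called in 15 of 16 and ran from −1.48 to −0.65. In both comparisons the call was lost with the mean of the MAMU-B probe sets (0.57 and −0.65). The other alternatives kept set 1 alone, so they cannot tell how far the call depends on the probe set. MAMU-E in rPESC-2 against ORMES-22 was called in only 10 of 16 and ran from −1.12 to −0.41. Differences of single genes were followed in set 1 of each gene. Other probe sets entered only the counts, the arrays left out and the mean of a gene's sets. Each fibroblast difference called in set 1 held in 14 or 15 of 15. Against ORMES-22 the mean of a gene's probe sets lowered MAMU-B to 0.34, MAMU-F to 0.27 and TAP2 to 0.61, and these calls were lost. Signal near the background limits MAMU-A set 2 in the ES lines, MAMU-F sets 2 and 3, TAP2 sets 2 and 3, TAPBP set 3 and NLRC5. Among the pathway genes it limits PSMB8, IRF2 and GBP1 in the ES lines.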
